A study of Mus musculus with 26 samples.

Results

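LRRK2 is a protein kinase, and a set of Rab GTPases are its best described substrates. Transcripts of 10 of these Rabs were followed in the mouse striatum, chosen by gene symbol: Rab3a, Rab3c, Rab5a, Rab5b, Rab5c, Rab8a, Rab8b, Rab10, Rab12 and Rab35. The authors deposited 3 tables of ribosome footprinting and RNA-Seq, and 9 of the 10 symbols were listed in each of them, among 8553 gene symbols in each transgenic table and 9535 in the LRRK2 KO table. Rab8b was listed in none, and the tables leave out transcripts with few reads, so its level was not measured here. All mice were C57BL/6, and the labels give an age of 3 months for every library. The first table sets mice carrying G2019S LRRK2 (GS LRRK2 TG) against non-transgenic (non-TG) control, and the second sets mice carrying kinase-dead G2019S/D1994A LRRK2 (GS/DA LRRK2 TG) against non-TG control. The third sets LRRK2 knock-out (KO) mice against wild type (WT). The first and second are called the G2019S table and the kinase-dead table. The transgenes were of the Tet-off type, in high-copy lines driven by CaMKII-tTA and so expressed in forebrain neurons with an active CaMKII promoter, and were held off with doxycycline chow until weaning. Each library came from caudate putamen pooled from several mice of mixed sex, so its values average over animals. The labels list 3 footprinting and 3 RNA-Seq libraries of non-TG control, 2 and 2 of GS LRRK2 TG, 2 and 2 of GS/DA LRRK2 TG, and 3 and 2 each of WT and LRRK2 KO in the striatum.

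Rab GTPases are small membrane switches. In the GTP-bound state a Rab sits on a particular membrane and recruits effectors that move, tether or fuse vesicles, and in the GDP-bound state it is taken off the membrane by GDP dissociation inhibitor (GDI). LRRK2 phosphorylates a serine or threonine in the switch II region, the loop that changes shape between these states. The phosphate weakens binding to GDI and exchange factors and creates a docking site for effectors such as RILPL1, RILPL2 and JIP3, while the phosphatase PPM1H removes it. Phosphorylation acts on the protein, whereas footprinting and RNA-Seq measure ribosomes on the mRNA and the amount of mRNA.

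Each deposited column is a mean over libraries without an SD. The reads of single libraries were worked out from these means for 10 of the 12 columns, each as 2 libraries, for 97.8% to 99.8% of transcripts. The libraries of the same table and assay fell into sets A and B: the difference between libraries was shared by control and genotype, with a correlation across transcripts of 0.738 for footprinting and 0.974 for RNA-Seq in the kinase-dead table, and of 0.834 and 0.732 in the LRRK2 KO table. The sets are named from the data, not from a label, and carry no replicate number. They were matched within each assay, so a set letter does not link footprinting libraries to RNA-Seq libraries. Libraries were paired so that the correlation was positive, so only its size is informative. The non-TG control columns of the G2019S table could not be resolved. The libraries held 6736094 to 16017990 footprints in coding sequences in the transgenic tables and 2862941 to 5991859 in the LRRK2 KO table. RNA-Seq libraries held 7966525 to 13551920 and 3126208 to 10574894 reads. The SD between the libraries of a group, across transcripts on the log2 scale, was 0.19 to 0.26 for footprinting and 1.01 to 1.19 for RNA-Seq in the transgenic tables. RNA-Seq levels, and with them TE levels, were thus much less precise there. This SD was 0.41 to 0.46 over both assays in the LRRK2 KO table. A distance between sets that control and genotype share cancels in part in their difference. In the kinase-dead table the RNA-Seq difference within a set had an SD across transcripts of 0.29 in set A and 0.24 in set B.

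Lrrk2 (uc007xhz.1) was examined first as a check of the labels. The authors' footprinting mean of Lrrk2 was 126 in LRRK2 KO and 545 in WT, and the RNA-Seq mean was 347 and 1006. In the kinase-dead table the footprinting mean was 6017 against 1335 in non-TG control, whereas GS LRRK2 TG had 5186 against 2524. RNA-Seq did not set the transgenic groups apart from their controls at Lrrk2, with means of 2721 against 2897 for GS/DA LRRK2 TG and of 1882 against 2105 for GS LRRK2 TG. The footprinting control means differed between both transgenic tables at this gene: the ratio of the G2019S table to the kinase-dead table was 1.89 for Lrrk2, the highest of 8576 transcripts, against a median ratio of 0.792 over all transcripts. In RNA-Seq the control ratio of Lrrk2 was 0.727, below the median of 0.912. The tables were normalized separately. What the difference at Lrrk2 reflects could not be settled from the means, nor could the libraries behind this control column, and every GS LRRK2 TG value is read against it. For the listed Rabs this ratio lay between 0.770 for Rab5c and 0.813 for Rab3c, near that median. Their RNA-Seq control ratio ran from 0.762 for Rab8a, with Rab12 next, to 1.03 for Rab3a. Markers of striatal spiny neurons were abundant in every table (12 of 14 listed), with Ppp1r1b, the phosphoprotein DARPP-32, the most abundant at an RNA-Seq mean of 39026 in non-TG control of the G2019S table.

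The 9 listed Rabs were at very different levels. Among the Rab3 proteins of synaptic and secretory vesicles, Rab3a (uc009mbi.2, chromosome 8, 73278578 to 73282576 in mm9) had the highest level per kb of coding sequence in every control column. Its authors' control mean per kb was 21603 for footprinting and 13009 for RNA-Seq in the G2019S table, above 99.4% and 98.5% of transcripts. Rab3c (uc007rvo.2, chromosome 13, 110844395 to 111071109) reached 3974 footprints per kb at 1028 RNA-Seq reads per kb in the same controls. Rab3c thus ranked second among the Rabs in footprints and last in RNA in these controls. In WT it ranked second in footprints and the third highest in RNA, at 1177 reads per kb.

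The Rab5 proteins organize early endosomes, where they recruit EEA1 and promote fusion of endocytic vesicles. In the G2019S table, Rab5a (uc008czn.1, chromosome 17, 53618559 to 53646996) had a control mean of 3733 footprints and 1234 RNA-Seq reads per kb. Rab5b (uc007hnv.2, chromosome 10, 128114249 to 128133324) had 2337 footprints and 2811 RNA-Seq reads per kb, and Rab5c (uc007lme.1, chromosome 11, 100576323 to 100599529) had 3517 and 3563. Rab5a thus held the most footprints of these paralogs and the least RNA in these controls. In WT it again held the most footprints, while Rab5b had the least RNA, at 915 reads per kb against 1165 for Rab5a. Between sets A and B, Rab5a and Rab5c changed places in footprints per kb. Rab5a had 5435 and 4237 against 4573 and 4562 for Rab5c in non-TG control of the kinase-dead table. In WT, Rab5a had 1091 and 1536 against 1187 and 1203 for Rab5c.

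Rab8a and Rab10 carry cargo from the Golgi and recycling compartments to the plasma membrane, and Rab8a also serves the primary cilium. Rab10 (uc007mwl.2, chromosome 12, 3247430 to 3309969) had a control mean of 3307 footprints and 2058 RNA-Seq reads per kb in the G2019S table. Rab8a (uc009mfj.1, chromosome 8, 74685099 to 74707803) had 697 footprints against 2161 RNA-Seq reads per kb, and was the lowest of the 9 in footprints in every control column. Rab12 (uc008djy.1, chromosome 17, 66843852 to 66869057), which directs recycling receptors to lysosomes, had 1369 footprints and 2388 RNA-Seq reads per kb. Rab35 (uc008zei.1, chromosome 5, 116081938 to 116097745), which acts in fast endocytic recycling, had 1560 and 1241.

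TE, the log2 ratio of the footprinting to the RNA-Seq mean, put these differences on 1 scale. In the G2019S table, TE in non-TG control was 1.95 for Rab3c and 1.60 for Rab5a, above 99.7% and 99.0% of transcripts. It was 0.73 for Rab3a, 0.68 for Rab10, 0.33 for Rab35, -0.02 for Rab5c, -0.27 for Rab5b, -0.80 for Rab12 and -1.63 for Rab8a, the last above 5.60% of transcripts. The median over the 9 was 0.33, beside -0.17 over all transcripts. The control column of the kinase-dead table, from the same labelled non-TG control group, gave the same order, from 2.01 for Rab3c to -1.67 for Rab8a. The WT column, from other mice, also had Rab3c highest at 0.49 and Rab8a lowest at -0.93, with 33.3% of transcripts below Rab8a.

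The spread between libraries limited part of that order. Among non-TG control libraries recovered from the kinase-dead table, TE from any pair of a footprinting and an RNA-Seq library ran from 1.36 to 3.02 for Rab3c, from 1.27 to 2.41 for Rab5a and from -2.31 to -0.57 for Rab8a. Of the 7 neighbouring pairs in the order of TE with both assays recovered, 7 overlapped in these ranges, although Rab3c and Rab5a did not overlap with Rab8a. The Rabs share these libraries, and within every pair of libraries 3 of the 7 kept the same sign of the TE difference between genes: Rab5a above Rab10, Rab35 above Rab5c and Rab12 above Rab8a. In WT this held for 2 of 8, Rab3c above Rab10 and Rab5c above Rab8a. This count was added after the values were seen. Libraries overlapped for 2 of 7 neighbouring pairs of footprint levels and 7 of 8 of RNA-Seq levels in non-TG control. In WT they overlapped for 4 of 8 in each assay. Within every library, the sign was the same for 5 of 7 footprint pairs and 4 of 8 RNA-Seq pairs in non-TG control. In WT this held for 6 of 8 footprint pairs and 7 of 8 RNA-Seq pairs. In WT, TE ran from -0.16 to 1.27 for Rab3c and from -1.19 to -0.65 for Rab8a.

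The coding sequences were short and similar in length, from 603 bases in Rab10 to 732 in Rab12, against a median of 1450.5 over the transgenic tables. Their GC content ran from 42.3% in Rab5a and 45.9% in Rab10 to 55.3% in Rab5c, around a median of 52.8%. The lowest folding energy of the 5′UTR among isoforms was -289.9 kcal/mol for Rab10 and -201.8 for Rab5a, the most structured of the 9. It was -142.41 for Rab3a, -138.2 for Rab5b, -78.3 for Rab3c, -73.6 for Rab8a, -67.3 for Rab35, -46.8 for Rab12 and -42.6 for Rab5c, beside a median of -91.15. Rab5a, with a strongly folding leader, and Rab3c, with a moderate one, thus had the highest control TE of the 9 in both transgenic tables.

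The codon that makes these Rabs substrates lies in a stretch that all 10 genes share. The lines below give 30 bases of mouse coding sequence (mm9) around it, 5′ to 3′ on the coding strand, with the codon of the phosphorylated serine or threonine in capitals. The stretch lies in exon 3 of each gene except Rab35, where it crosses from exon 3 to exon 4 (chr5:116090184-116093377).
Rab3a: caagagcggtaccgcACCatcaccacagcc
Rab3c: caggaaagatacaggACCatcaccacagcc
Rab5a: caagaacggtatcatAGCttagcaccaatg
Rab5b: caggagcgataccacAGTttagcccctatg
Rab5c: caagagcgctatcacAGCctggccccgatg
Rab8a: caggagcggtttcgaACAatcacgacagcc
Rab8b: caggaaagattccgaACAattacgacagca
Rab10: caggagcgatttcacACCatcacaacctcc
Rab12: caggagcgatttaacAGCattacctcagcc
Rab35: caggagcgcttccgcACCatcacctctacg

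The codon is number 86 in Rab3a, 94 in Rab3c, 84 in Rab5a and Rab5b, 85 in Rab5c, 72 in Rab8a, Rab8b and Rab35, 73 in Rab10 and 105 in Rab12. It encodes threonine (ACC or ACA) in 6 of the genes and serine (AGC or AGT) in Rab12 and the Rab5 paralogs. Of the 30 bases, 24 were identical between Rab3a and Rab3c, between Rab8a and Rab8b and between Rab3a and Rab8a. Rab8a and Rab10 shared 23, and the least alike pair, Rab5c and Rab8b, shared 11.

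GS LRRK2 TG against non-TG control asks whether a kinase-active LRRK2 transgene goes with a different output of its own substrates. Footprints of the Rabs lay close to the control. The log2 difference between the authors' means ran from -0.00 for Rab8a to 0.13 for Rab3c, with a median of 0.09 beside 0.00 over all transcripts. A difference past 0.25 in size was seen in 0 of 9 Rabs and in 6.53% of the 8576 transcripts. By function, the footprint difference was 0.04 for Rab3a, 0.13 for Rab5a, 0.12 for Rab5b, 0.06 for Rab5c, 0.09 for Rab10 and 0.09 for Rab12. Bulk tissue cannot tell more cells of a type from more RNA or ribosomes per cell.

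RNA-Seq differences of the Rabs in GS LRRK2 TG ran from -0.12 for Rab5a to 0.28 for Rab8a, with a median of 0.10 beside -0.02 over all transcripts. Past 0.25 in size was 1 of 9 (Rab8a), beside 19.0% of transcripts. Rab8a also had the lowest RNA-Seq control ratio of the Rabs between the transgenic tables, and the part of this in its RNA-Seq and TE differences was not tested. The TE difference was -0.28 for Rab8a, 0.25 for Rab5a, -0.12 for Rab5c, -0.09 for Rab12 and -0.07 for Rab5b. Rab3a, Rab3c and Rab10 each had a TE difference of 0.04, and Rab35 one of -0.04. The median TE difference was -0.04 beside 0.02 over all transcripts, and 2 of 9 were past 0.25 in size beside 22.3% of transcripts. With all libraries, the share of Rabs past that size was therefore close to the background. Without 1 transgenic RNA-Seq library the count was 8 or 7 of 9, and without 1 footprinting library it was 2 or 0. These counts set a single transgenic library of that assay against the control mean, so they include the distance between the libraries. The share of all transcripts was not counted for these.

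Single libraries of GS LRRK2 TG were far apart in RNA-Seq at these genes. Rab12 had 2981 and 979 normalized RNA-Seq reads in the GS LRRK2 TG libraries, Rab8a had 2409 and 867, and Rab3c had 1232 and 272. Rab3a went the other way, with 5113 and 12108, as did Rab5c, with 2210 and 3048, and Rab35, with 669 and 877. Footprints of the same genotype were closer, with 464 and 406 for Rab8a, 2960 and 3004 for Rab3c and 13866 and 15602 for Rab3a. Rab5a, at 2202 and 3103, Rab5b, at 1470 and 1823, and Rab35, at 1038 and 853, were farther apart. Rab5a had 1162 and 308 RNA-Seq reads, and its TE difference ran from -0.41 to 1.51 when 1 transgenic library was left out. For Rab8a it ran from -0.84 to 0.64. No test was made for GS LRRK2 TG, since its control columns could not be resolved into libraries. The non-TG control libraries recovered from the kinase-dead table were normalized with that table.

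GS/DA LRRK2 TG carries kinase-inactive LRRK2 in a separate transgenic line. Both transgenic comparisons use the non-TG control group, so values of these comparisons are set side by side and not related to each other. Footprint differences of the Rabs ran from -0.05 for Rab5c to 0.11 for Rab3c, with a median of -0.01, the same as over all transcripts to this precision. Past 0.25 in size was 0 of 9, beside 7.02% of transcripts. With a pseudocount of 10, the 8 Rabs with footprinting libraries recovered (all but Rab3a) lay between -0.11 and 0.12 within set A and between -0.11 and 0.09 within set B.

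In RNA-Seq of GS/DA LRRK2 TG, Rab5a had a log2 difference of 0.30 and Rab8a one of -0.23, and 1 of 9 was past 0.25 in size (Rab5a), beside 16.8% of transcripts. The median was -0.03, beside 0.06 over all transcripts. The TE difference was -0.31 for Rab5a, -0.15 for Rab10 and 0.18 for Rab8a, and between -0.02 and 0.08 for the others. The median was 0.03 beside -0.05 over all transcripts, and 1 of 9 was past 0.25 in size beside 14.6%. Without the control RNA-Seq library of set A or B this count was 7 or 6 of 9. Without the GS/DA LRRK2 TG RNA-Seq library of set A or B it was 9 or 8. Without 1 footprinting library it was 0 or 1 of 8. Leaving out 1 library compares 1 set with the mean of both sets, so these counts include the distance between sets. With 1 library per group and assay, from the same set in control and genotype, the count was 1 or 2 of 8. The share of all transcripts was not counted for these. For Rab5a the TE difference was 0.25 in GS LRRK2 TG and -0.31 in GS/DA LRRK2 TG, and for Rab8a it was -0.28 and 0.18. When 1 library was left out, the GS/DA LRRK2 TG value of Rab5a ran from -0.95 to 0.85. That of Rab8a was -0.87 and 0.78 without either control RNA-Seq library in turn, and higher still without the GS/DA LRRK2 TG RNA-Seq library of set A. The difference between these comparisons was not tested.

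The single libraries show what the Rab5a value in GS/DA LRRK2 TG rests on. In set A, Rab5a had 1141 normalized RNA-Seq reads in non-TG control and 1728 in GS/DA LRRK2 TG. In set B it had 664 and 496, so the sets pointed in opposite directions. Footprints of Rab5a were 3522 and 3646 in set A and 2746 and 2572 in set B. Rab8a RNA-Seq was 2685 in control and 2200 in GS/DA LRRK2 TG in set A, and 856 and 830 in set B, lower in the transgenic library in both sets but by less than the distance between the sets. Rab8a footprints were 541 and 519 in set A and 575 and 559 in set B. Past 0.25 in size in RNA-Seq, with the same pseudocount, were 3 of 9 in set A, beside 35.8% of transcripts, and 1 of 9 in set B, beside 24.9%.

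**Figure D1:**
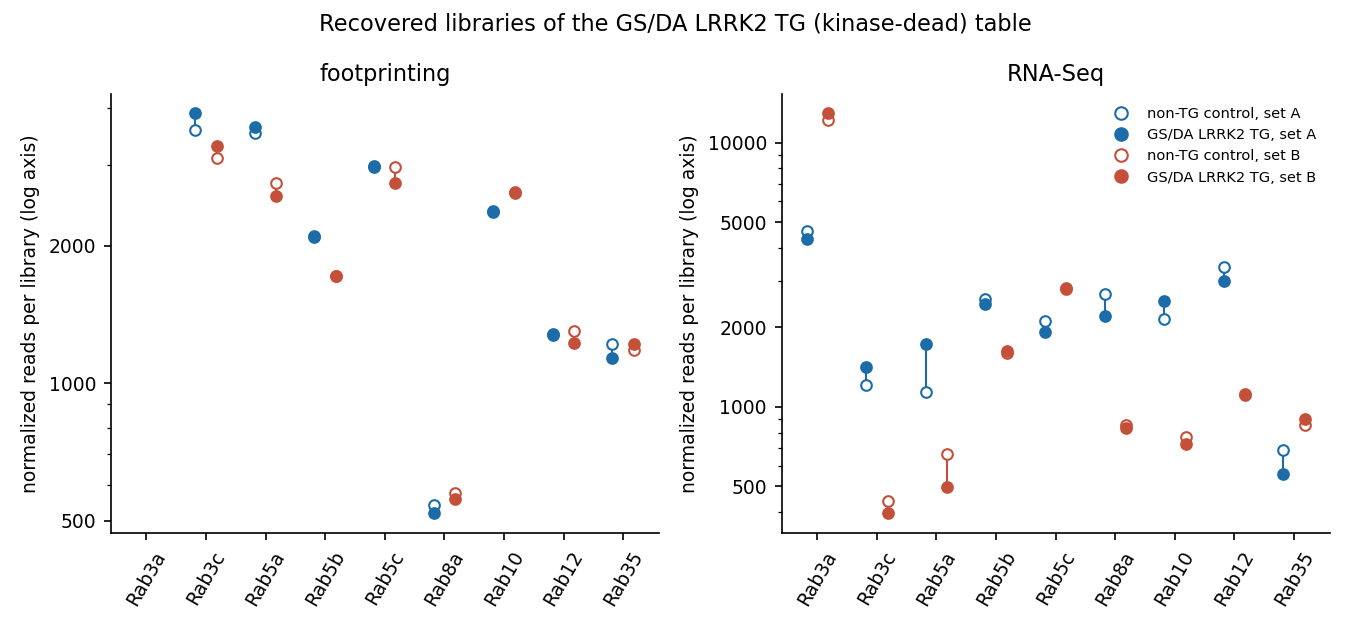
Normalized reads of each listed Rab in each recovered library of the kinase-dead table (log axis), for footprinting and RNA-Seq, with open circles for non-TG control, filled circles for GS/DA LRRK2 TG, a line joining libraries of the same set, and colour for set A or B. In RNA-Seq the sets lie farther apart than the genotypes for most Rabs, as for Rab12 with 3376 and 2992 in set A and 1106 and 1121 in set B. Rab3a has no footprinting points because its libraries were not recovered. The set letters do not link footprinting to RNA-Seq libraries.

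limma on the recovered libraries called 0 of 8 Rabs in footprinting, RNA-Seq or TE for GS/DA LRRK2 TG, beside 0% of 8322 transcripts. At an unadjusted p under 0.05 it had 0 of the 8 Rabs and 3, 2 and 0 transcripts in footprinting, RNA-Seq and TE. This fit pools the spread of both assays, and in it Lrrk2 footprints, with a log2 difference of 2.14 and an SE of 1.44, also missed the threshold (limma adjusted p = 1.00), so its count of 0 says nothing about the Rabs. Footprinting libraries fitted alone, an alternative added after seeing the data, gave 0 calls by limma, with 154 transcripts and 0 of the 8 Rabs at an unadjusted p under 0.05. With a term for library set, limma again called 0 of 8 Rabs and 0% of transcripts in each of the 3 effects, with 275, 379 and 34 transcripts and 0 of the 8 Rabs at an unadjusted p under 0.05. Lrrk2 footprints, at 2.14 with an SE of 0.15, missed the threshold here too (limma adjusted p = 0.0949). The count of 0 in this fit is thus no finding on the Rabs either. In that fit the SE of a difference within an assay, pooled over both assays, was 0.10 for Rab5b, 0.11 for Rab8a, 0.13 for Rab3c and 0.23 for Rab5a.

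LRRK2 KO against WT asks what happens to the substrates when the kinase is missing. Footprints of all 9 Rabs again lay near the control, from -0.03 for Rab5a to 0.07 for Rab5b, with a median of 0.04 beside 0.02 over all transcripts. Past 0.25 in size was 0 of 9, beside 15.4% of transcripts. RNA-Seq means were lower in LRRK2 KO for 7 of the 9, beside 4656 of 9561 transcripts. The log2 difference was -0.57 for Rab3c, -0.39 for Rab5a and -0.30 for Rab3a. The others lay between -0.17 for Rab5b and 0.15 for Rab8a. The median was -0.16 beside 0.01 over all transcripts, and 3 of 9 were past 0.25 in size beside 25.4% of transcripts.

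With footprints near the control, TE was higher in LRRK2 KO for 7 of the 9, beside 5069 of 9561 transcripts. The TE difference was 0.60 for Rab3c, 0.36 for Rab3a and 0.36 for Rab5a, followed by 0.24 for Rab5b, 0.18 for Rab35, 0.17 for Rab5c and 0.17 for Rab10. It was -0.05 for Rab12 and -0.11 for Rab8a. The median was 0.18 beside 0.02 over all transcripts, and 3 of 9 were past 0.25 in size beside 33.0%, so the count was that of the background. Without the WT RNA-Seq library of set B the median was 0.04.

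For Rab3c, Rab5a, Rab3a and Rab10 the lower RNA-Seq means came from set B. Rab3c had 546 normalized RNA-Seq reads in WT and 556 in LRRK2 KO in set A, and 1063 and 525 in set B. Rab5a had 630 and 617 in set A, and 880 and 537 in set B. Rab3a had 3783 and 3657 in set A, and 6829 and 4964 in set B. Rab10 had 564 and 656 in set A, and 772 and 541 in set B. For each of these 4 genes the WT library of set B stood above the other 3 libraries. Rab5c followed the same pattern, with 872 and 860 in set A and 1133 and 962 in set B. The WT library of set B was the highest of the 4 for 7 of the 9 Rabs, all but Rab8a and Rab12. The same count was not made over all transcripts. Rab5b and Rab35 had lower RNA-Seq values in LRRK2 KO in both sets, by a log2 difference of -0.14 and -0.19 for Rab5b and of -0.12 and -0.13 for Rab35.

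With a pseudocount of 10, the median RNA-Seq difference of the 9 Rabs was -0.03 within set A and -0.23 within set B. Past 0.25 in size were 0 of 9 in set A, beside 14.1% of transcripts, and 5 of 9 in set B, beside 52.8% of transcripts. Differences within set B were thus wide over the whole table, with an SD of 0.40 across transcripts against 0.18 in set A. Footprint differences had a median of 0.10 in set A and -0.08 in set B, with 1 of 9 past 0.25 beside 30.3% of transcripts and 0 of 9 beside 26.9%. The Rab past it was Rab10, with 585 footprints in WT and 720 in LRRK2 KO in set A, and 951 and 834 in set B. Rab8a was the most thinly counted, with 112 to 225 footprints per library before normalization.

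**Figure D2:**
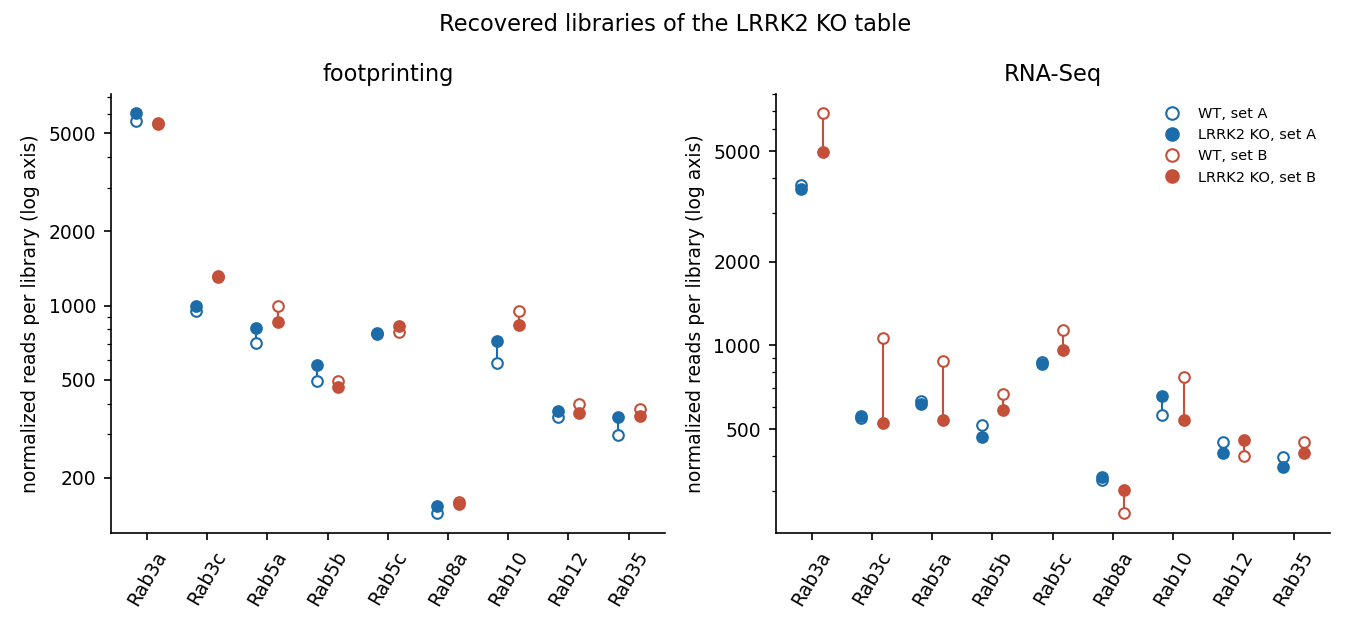
Normalized reads of each listed Rab in each recovered library of the LRRK2 KO table (log axis), for footprinting and RNA-Seq, with open circles for WT, filled circles for LRRK2 KO, a line joining libraries of the same set, and colour for set A or B. In RNA-Seq the WT library of set B is the highest point for 7 of the 9 Rabs, among them Rab3a (6829), Rab3c (1063), Rab5a (880) and Rab10 (772). This was counted for the Rabs only. The set A libraries of Rab3c (546 and 556) nearly coincide. The set letters do not link footprinting to RNA-Seq libraries.

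limma called 0 of 9 Rabs in footprinting, RNA-Seq or TE for LRRK2 KO, beside 0% of 9519 transcripts. At an unadjusted p under 0.05 it had 0 of the 9 Rabs and 16, 8 and 4 transcripts. Lrrk2 itself missed the threshold there, with a footprinting difference of -2.00 and an SE of 0.41, so the count of 0 in this fit is no finding on the Rabs either. With a term for library set, limma called 0.0210% of transcripts in footprinting, 0.0315% in RNA-Seq and 0% in TE, with 216, 460 and 186 transcripts at an unadjusted p under 0.05. Lrrk2 was among the transcripts called in footprinting and RNA-Seq, and 0 of 9 Rabs were called. Rab3c RNA-Seq had the lowest p of the Rabs in that fit, with a difference of -0.49, an SE of 0.21 and an unadjusted p = 0.0325 (limma adjusted p = 0.915), lower in LRRK2 KO in 1 of the 2 sets. The TE difference of Rab3c had an SE of 0.30 (limma adjusted p = 1.00). The p-values measure the spread between these pooled libraries.

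**Figure D3:**
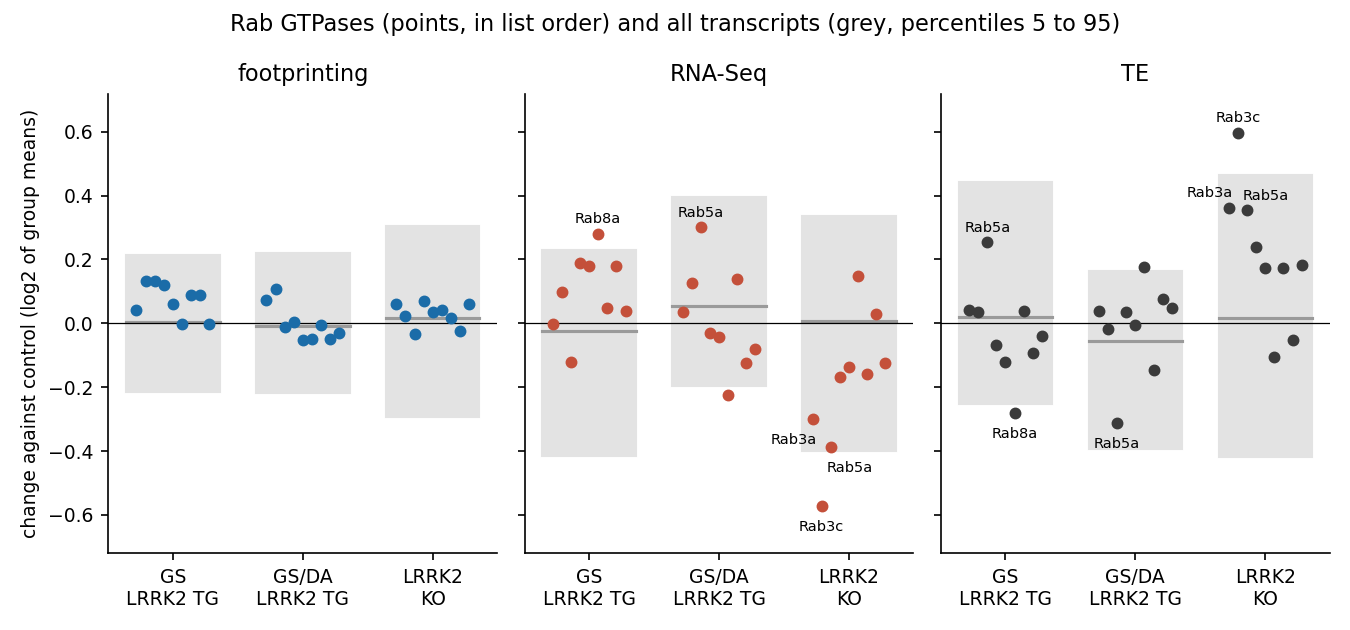
Log2 difference of the authors' means between each genotype and its control for footprinting, RNA-Seq and TE. Each point is a listed Rab, in the order Rab3a, Rab3c, Rab5a, Rab5b, Rab5c, Rab8a, Rab10, Rab12 and Rab35, and points past 0.25 in size are named. The grey box spans percentiles 5 to 95 of all transcripts of that table and the grey line is their median. All footprinting points lie between -0.05 and 0.13, while in LRRK2 KO the RNA-Seq point of Rab3c is at -0.57 and its TE point at 0.60.

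Other Rab GTPases were set beside these substrates, and they include Rab3b and, in the LRRK2 KO table, Rab3d, which have also been described as substrates. There were 30 others in each transgenic table and 32 in the LRRK2 KO table. Their median footprint difference was 0.06, 0.03 and -0.00 in the G2019S, kinase-dead and LRRK2 KO tables, beside 0.09, -0.01 and 0.04 for the substrates. Their median RNA-Seq difference was -0.06, 0.08 and -0.17, beside 0.10, -0.03 and -0.16 for the substrates. Their median TE difference was 0.14, -0.09 and 0.11, beside -0.04, 0.03 and 0.18. The substrates were not tested against the other Rabs. In LRRK2 KO, 12 of the 32 others and 3 of the 9 substrates were past 0.25 in size in TE, beside 33.0% of transcripts.

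Of 60 other genes around these Rabs, each transgenic table listed 43, as 44 transcripts. LRRK2 KO against WT listed 45, as 46 transcripts. limma called 0 of 42 transcripts tested for GS/DA LRRK2 TG and 0 of 46 for LRRK2 KO in footprinting, RNA-Seq or TE, with 0 at an unadjusted p under 0.05. With the term for library set it again called 0, with 1, 3 and 0 at an unadjusted p under 0.05 for GS/DA LRRK2 TG and 2, 1 and 2 for LRRK2 KO. TE differences past 0.25 in size were 5 above and 2 below 0 in GS LRRK2 TG, 2 and 8 in GS/DA LRRK2 TG, and 7 and 2 in LRRK2 KO. Over all transcripts the same counts were 1462 and 449, 127 and 1128, and 1728 and 1430. Gdi2, whose product extracts GDP-bound Rabs from membranes, had footprint differences of 0.03, -0.08 and 0.04 in the order G2019S, kinase-dead and LRRK2 KO. Ppm1h, the phosphatase of the switch II site, had footprint differences of -0.10, 0.18 and 0.11 and TE differences of -0.19, -0.32 and -0.10.

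Effectors of the phosphorylated Rabs were less fully covered. Rilpl1, which binds phosphorylated Rab8 and Rab10 and acts on cilia, had footprint differences of -0.21, 0.01 and -0.32 and a TE difference of -0.46 in LRRK2 KO. Rilpl2 was listed in the LRRK2 KO table only, with a footprint difference of -0.04 and a TE difference of 0.34. Mapk8ip3, which encodes the motor adaptor JIP3, had footprint differences of -0.03, 0.06 and -0.04. Spag9, which encodes the related adaptor JIP4, and Madd, an exchange factor of Rab3, were listed in no table.

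Among partners of Rab3 and Rab5, Rims1, the active zone scaffold that binds Rab3, had TE differences of -0.29, 0.16 and -0.22. Rph3a, a Rab3 effector on synaptic vesicles, had -0.17, -0.10 and 0.01, and Rab3gap1, a subunit of the Rab3 GTPase-activating complex, 0.02, -0.00 and 0.24. Eea1, the early endosome tether that binds Rab5, had TE differences of 0.33, -0.41 and 0.19, with footprint differences of 0.10, 0.05 and -0.06. Vps35, a retromer subunit, had 0.31, -0.27 and 0.24 in TE and 0.06, 0.02 and 0.06 in footprints. Rabgef1, an exchange factor of Rab5, had -0.05, 0.20 and 0.15 in TE, and Rab3ip, which activates Rab8, 0.03, -0.05 and -0.10. The larger TE values of Eea1 and Vps35 from the authors' means lay mostly in RNA-Seq. In the kinase-dead table their negative values were not seen on the logs of the recovered libraries. There limma, without the term for library set, gave a TE difference of 0.02 for Eea1, with an SE of 1.96. For Vps35 it gave 0.01, with an SE of 1.31. In LRRK2 KO the same fit gave 0.30 for Eea1 and 0.25 for Vps35. GS LRRK2 TG was not fitted, so its sign contrast with GS/DA LRRK2 TG at these genes was not tested.

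Other features of the samples moved beside these values. Cortical neuron markers (4 of 8 listed in the transgenic tables) had a summed RNA-Seq mean of 1731 in non-TG control and 3597 in GS/DA LRRK2 TG, and of 2159 and 1356 in the G2019S table, with Slc17a7 the most abundant. Their summed footprints were 1517 and 3550, and 1757 and 1529. In the LRRK2 KO table (8 of 8 listed) their summed RNA-Seq mean was 4546 in WT and 3767 in LRRK2 KO, with a median RNA-Seq difference of -0.28 and a median TE difference of 0.27, beside -0.16 and 0.18 for the Rabs. Choroid plexus and ependyma markers (3 of 5 listed, led by Ttr) had summed footprints of 8252 in control and 4452 in GS LRRK2 TG, and of 15699 and 8240 in the kinase-dead table. In the LRRK2 KO table, microglia markers (6 of 8 listed) had a summed RNA-Seq mean of 786 in WT and 985 in LRRK2 KO, and blood markers (2 of 5, led by Hba-a2) summed footprints of 2462 and 1545. Summed RNA-Seq of spiny neuron markers differed by -0.12, -0.18 and 0.05 (log2) in the G2019S, kinase-dead and LRRK2 KO tables, and summed footprints by -0.11, -0.30 and 0.06, with 156440 in control and 127492 in GS/DA LRRK2 TG. For oligodendrocyte markers (8 of 8) RNA-Seq differed by 0.12, 0.07 and -0.09 and footprints by 0.16, 0.02 and -0.01. For astrocyte markers (7 of 7) RNA-Seq differed by 0.04, 0.11 and -0.19 and footprints by 0.07, 0.08 and -0.02. Endothelial markers were listed in no table (0 of 4). The part of these cell types in the Rab values was not tested.

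Base composition also separated the RNA-Seq libraries of the transgenic tables. Across transcripts, which are not independent replicates, the log ratio of the RNA-Seq libraries of a group had a Spearman correlation with GC content of the coding sequence of -0.793 in GS LRRK2 TG, -0.804 in GS/DA LRRK2 TG and -0.782 in the controls of that table. It was -0.0345 in WT and -0.271 in LRRK2 KO. For footprinting it ran from -0.470 in GS/DA LRRK2 TG to 0.540 in WT. Rab3c, with 48.1% GC, had 1215 and 442 RNA-Seq reads in the control libraries, while Rab5c, with 55.3%, had 2107 and 2787. Rab12, with 54.1%, had 3376 and 1106. The difference between genotypes within a set was also compared with GC content across transcripts. In the kinase-dead table its Spearman correlation was -0.328 in set A and 0.628 in set B for RNA-Seq, and 0.0757 and 0.179 for footprinting. In the LRRK2 KO table it was -0.216 and 0.229 for RNA-Seq, and -0.604 and 0.209 for footprinting. The part of base composition in the Rab values was not tested.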

How the data were processed

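The authors aligned footprinting and RNA-Seq reads to mm9 (TopHat2 2.0.11, Bowtie2 2.2.2), counted reads in the coding sequence, and deposited for each transcript a normalized mean of each group and assay made with DESeq 1.20, a signal without an SD. The deposited TE, TE-difference and z-score columns hold the authors' own values and were not used. 5′UTR folding energies (kcal/mol) are as the authors deposited them.

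TE was computed as the log2 ratio of the footprinting to the RNA-Seq mean with a pseudocount of 0 and no further filter. Levels per kb used the CCDS-tagged transcript with the longest coding sequence of each gene in the NCBIM37 annotation, which matched 96.9% of transcripts in the transgenic tables and 96.7% in the LRRK2 KO table.

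Reads are whole numbers, so a mean of 2 libraries divided by size factors can take only certain values, set by a pair of step sizes. The steps were found from recurring differences between means, and a transcript was kept where 1 pair of whole numbers gave its mean within the rounding of the file. Where several pairs of steps worked, the one with the smallest ratio between libraries was taken. The geometric mean of the 4 size factors of a table and assay, not used in that choice, was 0.997 to 1.00. In the column with the lowest share, 99.8% of means under 2000 were met, and 0% after a constant shift. The procedure was tested on simulated data. Sets A and B were matched within each assay by the library difference shared by control and genotype, in the pairing that gave a positive correlation.

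limma 3.58.1 (R 4.3.3) was fitted per table on log2 of the recovered normalized reads plus 10, with genotype, assay and their interaction, two-sided, over all transcripts with every library recovered. Adjusted p-values are those of Benjamini and Hochberg, with a threshold of 0.05. The G2019S table was not fitted. A size of 0.25 on the log2 scale was used for counts.

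Alternatives were a pseudocount of 10 for TE and 1 for limma, group means of at least 256, subtraction of the table's median, means of library logs, 1 library per group and assay, a term for library set, scaling to the recovered total, an intensity trend and leaving out each library. Crossed sets and fits of 1 assay alone were added after seeing the data. Other Rabs were symbols of Rab, a number and at most 1 letter, a form narrowed after values were seen to leave out Rab-binding proteins. They were to be named where the TE difference was at least 0.5 in size with all 4 means at least 500, which none reached. All listed substrates, Lrrk2 and a set of pathway genes were named. The substrates and lists were chosen with earlier results of these data known. The ventral midbrain libraries belong to no table used here. The number of unused columns of single samples was 0. Plots used matplotlib 3.10.9.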

Additional observations from a re-analysis of the deposited data

How the results depend on the processing

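The median TE difference of the Rabs moved by less than the spread between libraries under all alternatives. There were 7 in the G2019S, 16 in the kinase-dead and 16 in the LRRK2 KO table. That spread is wide, at 1.48, 1.14 and 0.31 on the log2 scale. It combines the distances between libraries within groups, sets included, so staying within it says little about stability. Of the values of single Rabs, 0 of 63, 0 of 135 and 4 of 143 moved by more than their own spread, in the same order. Leaving out 1 library at a time gave -0.41 to 0.64 in the G2019S, -0.75 to 0.85 in the kinase-dead and 0.04 to 0.38 in the LRRK2 KO table. Both transgenic medians thus changed sign with the library left out. The median turned positive without 1 RNA-Seq library of GS LRRK2 TG, and negative without 1 control or 1 transgenic library of either assay in the kinase-dead table. The lowest LRRK2 KO value is without the WT RNA-Seq library of set B. In the kinase-dead and LRRK2 KO tables, leaving out 1 library compares 1 set with the mean of both sets in that assay. These ranges thus include the distance between sets. In the G2019S table it sets a single transgenic library against the control mean. With 1 library per group and assay, from the same set in control and genotype, the median was -0.01 to 0.11 in the kinase-dead table. For LRRK2 KO it was 0.00 to 0.40. Under the same alternatives, Rab5a in LRRK2 KO ran from -0.19 to 0.91, and Rab12 from -0.31 to 0.21. The pseudocount, the filter on low means, subtraction of the median of the table and means of logs gave -0.06 to -0.04, 0.03 to 0.09 and 0.17 to 0.21 in the same order of tables. limma called 0 Rabs under each of 15 alternatives in the kinase-dead and LRRK2 KO tables, which says nothing about stability, since it called no transcript, Lrrk2 included, under any of them but the term for library set in LRRK2 KO. Means of library logs and 1 library per group were not run for GS LRRK2 TG, whose controls were not recovered, and only its transgenic libraries were left out in turn. Where 1 library was left in a group, it was assumed to vary like the others. By the labels, no paired analysis was possible because the columns carry no replicate number. The term for library set pairs libraries by sets matched from the data, a choice that favours a smaller spread. Depth limits Rab8a most, with 112 footprints in 1 LRRK2 KO library.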

Other observations

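The recovered libraries of Lrrk2 itself also differed widely. In GS LRRK2 TG, Lrrk2 had 3320 and 7052 normalized footprints and 3550 and 214 RNA-Seq reads. In the kinase-dead table, RNA-Seq of Lrrk2 was 5233 in non-TG control and 5038 in the transgenic library of set A, and 560 and 404 in set B, while footprints were 1445 and 7267 in set A and 1224 and 4766 in set B. The labels list 3 footprinting libraries each of WT and LRRK2 KO striatum, whereas these columns resolved as means of 2.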
